A study of Brachypodium distachyon and Sorghum bicolor and Panicum virgatum with 44 samples.

Results

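The CBF/DREB1 gene cluster on Brachypodium chromosome 4 was followed across 4 abiotic stresses in above-ground tissue of Brachypodium distachyon, a small temperate grass used as a model for cereals and bioenergy crops. The cluster was taken as every gene in the RNA-seq files with an ID between Bradi4g35570 and Bradi4g35650, which gave 9 of the 34310 genes (Bradi4g35570.v3.1, Bradi4g35580.v3.1, Bradi4g35590.v3.1, Bradi4g35600.v3.1, Bradi4g35611.v3.1, Bradi4g35620.v3.1, Bradi4g35630.v3.1, Bradi4g35642.v3.1 and Bradi4g35650.v3.1, written below without the annotation suffix). The range was chosen by a measured value, the high level of Bradi4g35570 in cold-treated plants relative to control plants, so the cold values of the cluster are given as a description, with no test. The files hold no gene names, and none of their IDs matched the reference gene table used here, so the name CBF/DREB1 comes from the choice of the range and could not be checked against an annotation.

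All plants were of the inbred line Bd21, grown in soil at a constant 20 °C with 20 h of light. Day 21 was the start of the stresses, 10 h after light on, and the stressed shoots were harvested 12 h later. The hour at which control shoots were harvested is not given, so whether it matched that of the stressed shoots is not known. Drought plants were removed from soil and their roots dried with paper towels, cold plants were placed at 4 °C, submergence plants lay under at least 5 cm of tap water, heat plants were placed at 40 °C, and control plants received no stress. Each of the 5 groups had 2 RNA-seq libraries labelled as biological replicates, with totals between 9885357 and 17978729 expected counts per library. The p-values below rest on a spread estimated over the pairs of all 5 groups together, cold included, and not on the compared pairs alone. Drought in this design was an abrupt loss of the root medium and not a gradual drying of soil.

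C-repeat binding factors (CBF), also called DREB1 proteins, are transcription factors of the AP2/ERF family that bind the CRT/DRE element in promoters. In Arabidopsis, low temperature induces their genes quickly, and the proteins in turn activate cold-regulated genes that increase freezing tolerance. In temperate cereals such as wheat and barley, CBF genes occur as tandem copies at a locus linked to frost resistance. Related DREB proteins, named DREB2, are better known from drought and heat responses. The roles of the 9 individual genes described here are not annotated in the files.

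A microRNA (miRNA) pairs with a target mRNA and can guide its cleavage, and PARE (Parallel Analysis of RNA Ends) sequences the uncapped ends that cleavage leaves. Of the 25863 miRNA target sites predicted in Brachypodium transcripts, 2 lay in the cluster, 1 each in Bradi4g35590 and Bradi4g35600. The mature miRNAs are shown, as the deposited table gives them, because they are the only sequences predicted to pair with the cluster. They are written 5′ to 3′ with the seed, bases 2 to 8, in capitals.
miR395d-3p: aAGUGUUUggggaacucuagg
miR7728-5p: uGCUCGGAuugaguguauuuu
The seeds of the pair differ. The first site spanned transcript positions 725 to 745 of Bradi4g35590, with the cleavage position at 736. Its psRNATarget expectation was 5, a penalty in which lower values mean better pairing, and 5 was the highest value the study kept. The second spanned positions 1261 to 1281 of Bradi4g35600, with the cleavage position at 1272 and an expectation of 4. TargetFinder, the other prediction program, gave neither site. The normalised PARE abundance (TP10M) was 0 at both sites, and both had a deposited prominence level of 0. Over all genes, 9788 of the 25863 predicted sites had a prominence level above 0, among them 47 of 97 sites of miR395d-3p and 49 of 109 sites of miR7728-5p. The table gives 1 value per site, with no value per library and no depth, so a limit of detection could not be set. The RNA-seq libraries outside cold held at most 8 expected counts of either gene, so the abundance of 0 is not read as an absence of cleavage.

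In the cold libraries every gene of the cluster was above its level in both control libraries. Bradi4g35570 had 519 and 1479 expected counts in cold, against 0.48 and 0 in control. On the TPM scale, which corrects for gene length and allows genes to be compared, this was 91.3 and 271 TPM in cold and 0.09 and 0 TPM in control. It was the most abundant gene of the cluster in both cold libraries, and against a floor of 3 counts per library it was at least 187-fold higher in cold.

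Bradi4g35611 followed, with 66.2 and 242 TPM in cold, against 0.48 and 0.55 TPM in control. Bradi4g35620 had 49.98 and 149.8 TPM in cold, against 0.08 and 0.07 TPM in control. Bradi4g35590 had 49.7 and 171 TPM in cold, against 0.39 and 1.14 TPM in control. Bradi4g35620 and Bradi4g35590 exchanged places between the cold replicates, so their order was not resolved. These 3 genes and Bradi4g35570 made up 77.7% of the summed TPM of the cluster in cold replicate 1 and 78.6% in cold replicate 2.

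The cold-over-control ratios of these 3 genes were 353 for Bradi4g35611, 1582 for Bradi4g35620 and 164 for Bradi4g35590. Few control counts stand behind them, which leaves wide counting intervals (95%) of 171 to 878 for Bradi4g35611, 437 to 13069 for Bradi4g35620 and 86.0 to 359 for Bradi4g35590. Without cold replicate 2 the ratios were 154 for Bradi4g35611, 802 for Bradi4g35620 and 74.8 for Bradi4g35590, and without cold replicate 1 they were 558, 2387 and 256 in the same order. Intervals here cover counting error only, and the reads carry no molecular identifiers. A fold against a floor allows for counting error in control alone and takes the lower cold library as counted. The intervals take counts summed over the 2 libraries of a group, so they leave out the difference between replicates. Without cold replicate 2 the ratios of Bradi4g35611 and Bradi4g35590 lay below their intervals.

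The other 5 genes were lower in cold. Bradi4g35600 had 23.3 and 76.8 TPM in cold, against 0.16 and 0.2 TPM in control, a ratio of 332 (142 to 1025). Bradi4g35650 had 18.2 and 66.5 TPM in cold, against 0.99 and 0.94 TPM in control, a ratio of 52.2 (33.2 to 87.1). Bradi4g35642 had 11.6 and 45.6 TPM in cold, against 0.67 and 0.81 TPM in control, a ratio of 43.1 (22.4 to 95.1). Without cold replicate 2 these ratios were 157 for Bradi4g35600, 22.7 for Bradi4g35650 and 17.8 for Bradi4g35642, and without cold replicate 1 they were 513, 82.5 and 69.3 in the same order.

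Bradi4g35580 was the member detected in cold alone, with 121 and 182 expected counts there (20.1 and 31.3 TPM) and 0 in each of the other 8 libraries. It was at least 43.7-fold higher in cold than in control. Bradi4g35630 was the weakest member, with 6 and 61 expected counts in cold (0.58 and 6.13 TPM) and 0 in both control libraries. Against the floor it was 2.17-fold higher in cold. That value rests on the 6 counts of cold replicate 1 and leaves out their counting error, so it is not a firm lower bound. Bradi4g35630 was the lowest of the 9 genes in both cold libraries, and drought replicate 1 held 4 counts of it. The cold libraries thus did not overlap the control libraries for any of the 9 genes. Over all 23494 tested genes, 31.7% had both cold libraries above both control libraries, and the edgeR fit called 12.2% higher and 9.63% lower in cold. Nothing is read from these shares, since the cluster was chosen in this comparison. In whole above-ground tissue, fewer cells of a type and less RNA per cell cannot be told apart.

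**Figure D1:**
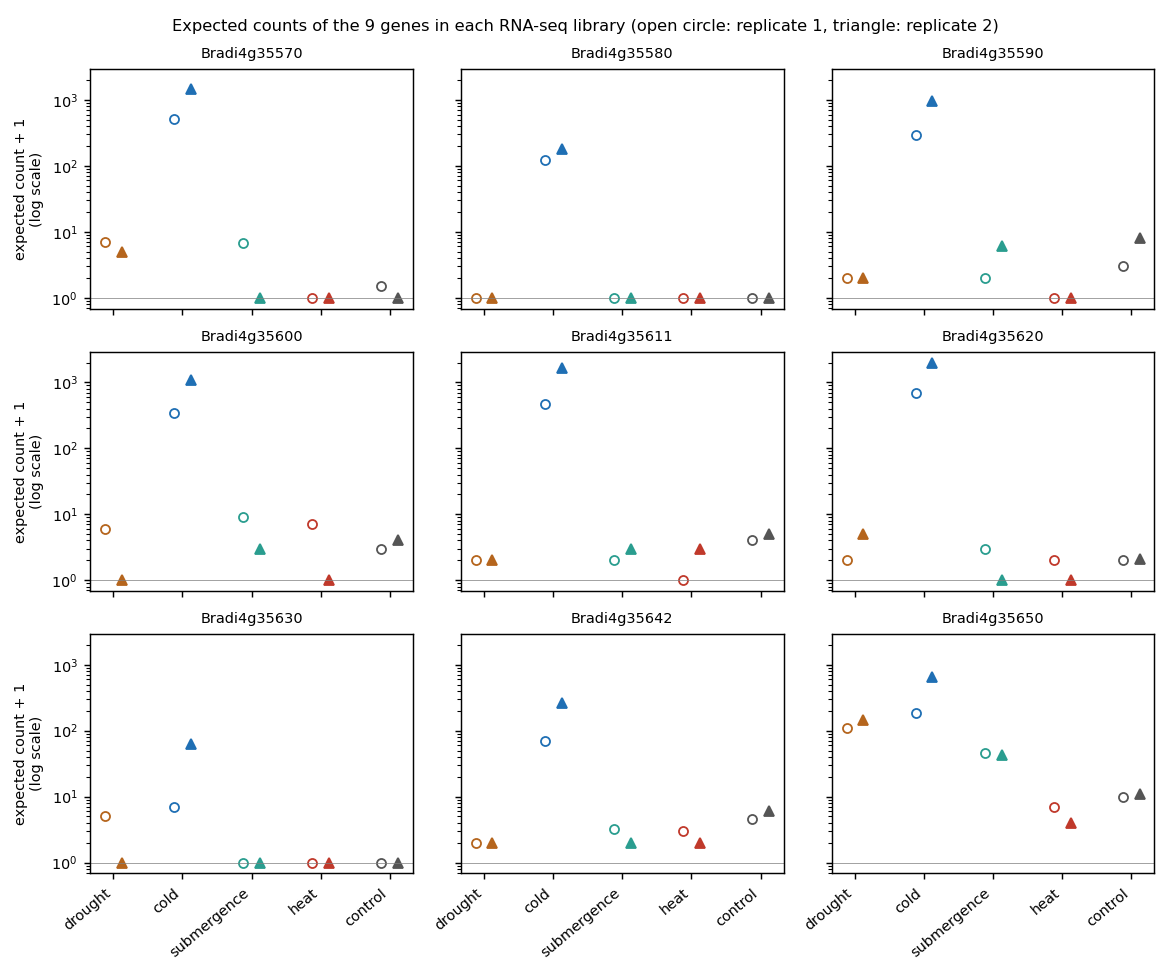
Expected counts plus 1 on a log axis for each of the 9 genes, 1 panel per gene, in the 2 libraries of the drought, cold, submergence, heat and control groups; each point is a library and the grey line marks a count of 0. In these counts, which are not scaled for depth, all 9 genes were highest in cold, and Bradi4g35650 alone had over 40 counts in the drought and submergence libraries as well.

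The cold replicates differed in level across the whole cluster. Cold replicate 2 was above cold replicate 1 for all 9 genes in CPM (counts scaled to library size by TMM), and the summed TPM of the cluster was 331 in cold replicate 1 and 1059.95 in cold replicate 2, a ratio of 3.20. Among the 8 genes that passed the filter on low counts, the ratio of cold replicate 2 to cold replicate 1 ranged between 1.55 for Bradi4g35580 and 3.89 for Bradi4g35642, with a median of 3.34. Bradi4g35630, which did not pass, had a ratio of 10.5.

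Most genes showed no such difference between these libraries. Over the 22968 tested genes with counts in both, the median ratio was 1.00, and 4.03% were at least 2-fold higher in cold replicate 2. Of the 8 tested members, 87.5% were. A ratio at or above that of the lowest tested member, Bradi4g35580, was found for 8.15% of tested genes. Among the 652 genes called higher in cold by at least 3 on the log2 scale, the median ratio was 0.774, and 16.4% reached that of Bradi4g35580. The members share reads and are not independent of each other, so these shares are a description. What set the replicates apart was not tested.

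**Figure D2:**
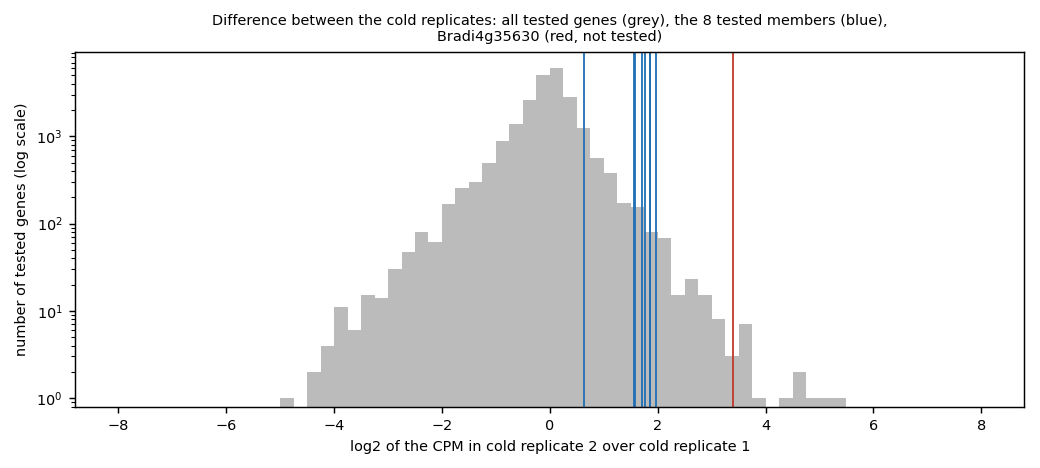
Histogram of the log2 ratio of CPM in cold replicate 2 over cold replicate 1 for all tested genes (grey, log count axis), with a line for each of the 8 tested members (blue) and for Bradi4g35630 (red). All 9 lines lie right of 0, at ratios between 1.55 and 10.5, whereas the median over all tested genes is 1.00.

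The make-up of the cluster was close between the cold replicates for most genes. Bradi4g35570 gave 27.6% of the summed TPM in cold replicate 1 and 25.5% in cold replicate 2. Bradi4g35611 gave 20.0% and 22.8%, and Bradi4g35650 gave 5.49% and 6.27%. Bradi4g35580 gave 6.07% in cold replicate 1 and 2.96% in cold replicate 2, and it had the lowest replicate ratio of the cluster. Bradi4g35630 gave 0.175% and 0.578%, and it had the highest.

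Some reads matched more than 1 gene of the cluster. RSEM divides such reads between genes, which gives counts that are not whole. Of the 72 values outside cold, 6 were not whole, and they formed pairs that summed to whole numbers: Bradi4g35570 and Bradi4g35642 in submergence replicate 1 (5.72 and 2.28) and in control replicate 1 (0.48 and 3.52), and Bradi4g35590 and Bradi4g35620 in control replicate 2 (6.94 and 1.06). In cold, 13 of the 18 values were not whole, and there the sum over the 9 genes was not whole either (2683.39 and 8286.68), so that reads were also divided with genes outside the range. The levels of the single genes are uncertain to that extent.

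Bradi4g35650, at the end of the range, was the member with a clear level in stresses other than cold. Its expected counts were 108 and 145 in the drought libraries, 186 and 654 for cold, 45 and 42 for submergence, 6 and 3 for heat, and 9 and 10 for control. As CPM, the drought mean was 14.5 ± 2.59, the cold mean 36.5 ± 29.3, the submergence mean 2.83 ± 0.497, the heat mean 0.249 ± 0.141 and the control mean 0.694 ± 0.0144 (SD, n = 2 each). The order was cold, drought, submergence, control and heat. Cold and drought overlapped, with cold replicate 1 at 15.7 CPM between the drought libraries at 12.7 and 16.3 CPM. Each other neighbouring pair of groups was separate. The share of all genes separated in this way is not given for these pairs, so the order is a description.

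Bradi4g35650 rose in drought. Its CPM was 12.7 and 16.3 in drought, against 0.704 and 0.683 in control, a ratio of 21.0 with a counting interval of 13.1 to 35.4. The log2 fold change was 4.37 ± 0.65 (SE), with a Benjamini-Hochberg adjusted p of 0.000252 in the edgeR quasi-likelihood test, and over 18 alternative settings the adjusted p ranged between 3.45e-12 and 0.0049. It was the only one of the 8 tested members called in this comparison, in which 32.1% of all tested genes were called higher, 32.8% lower and 64.9% in either direction. The other tested members passed the filter only through their cold counts, so nothing is read from their lack of a call. The control libraries are those of the comparison that chose the range, so this comparison is not independent of that choice.

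Submergence gave Bradi4g35650 3.18 and 2.48 CPM, against 0.704 and 0.683 CPM in control, a ratio of 4.04. The log2 fold change was 2.01 ± 0.71 (SE), with an edgeR adjusted p of 0.0561 (unadjusted p = 0.0184), which missed the threshold of 0.05. The adjusted p ranged between 0.00234 and 0.221 over the alternatives, and it was 0.00604 with DESeq2, 0.00318 without both cold libraries and 0.044 with the replicate number as a block. Whether submergence changed this gene relative to control thus depended on the fit. No tested member was called in this comparison by edgeR, while 1 had an unadjusted p under 0.05 and DESeq2 called 1, Bradi4g35650 in each case. Over all genes, edgeR called 31.5%, 43.0% had an unadjusted p under 0.05 and DESeq2 called 30.0%.

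Heat gave Bradi4g35650 0.349 and 0.149 CPM, against 0.704 and 0.683 CPM in control. The log2 fold change of -1.48 ± 1.02 (SE) had an edgeR adjusted p of 0.344. These libraries rest on 6 and 3 counts in heat, against 9 and 10 in control, and give a CPM ratio of 0.348 with a counting interval of 0.139 to 0.807. The difference was thus outside counting error but not outside the spread between libraries as the fit estimates it. No tested member was called by edgeR and none had an unadjusted p under 0.05, while DESeq2 called 1, Bradi4g35590, with 0 and 0 counts in heat and 2 and 6.94 in control. Nothing is read from that call, which rests on these few counts. Bradi4g35590 passed the filter of the edgeR fit only through its cold counts, and DESeq2 was run without that filter. Among all genes edgeR called 16.9%, 33.1% had an unadjusted p under 0.05 and DESeq2 called 17.8%.

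Comparisons between the stresses take neither mean from the control libraries, which enter only the shared estimate of the spread. Bradi4g35650 was higher in drought than in submergence, with 12.7 and 16.3 CPM against 3.18 and 2.48 CPM, and the log2 fold change was 2.36 ± 0.53 (SE, edgeR adjusted p = 0.00389). It was higher in drought than in heat by 5.85 ± 0.73 (SE, edgeR adjusted p = 7.55e-05), and higher in submergence than in heat by 3.49 ± 0.80 (SE, edgeR adjusted p = 0.00771), both on the log2 scale. The last call was lost without heat replicate 2, where the log2 fold change was 2.98 and the edgeR adjusted p 0.0615. Bradi4g35650 was the only tested member called in each of these 3 comparisons. Nothing is read from the lack of a call for the others, which passed the filter only through their cold counts. The shares of all tested genes called higher were 29.0% for drought against submergence, 32.5% for drought against heat and 18.7% for submergence against heat.

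**Figure D3:**
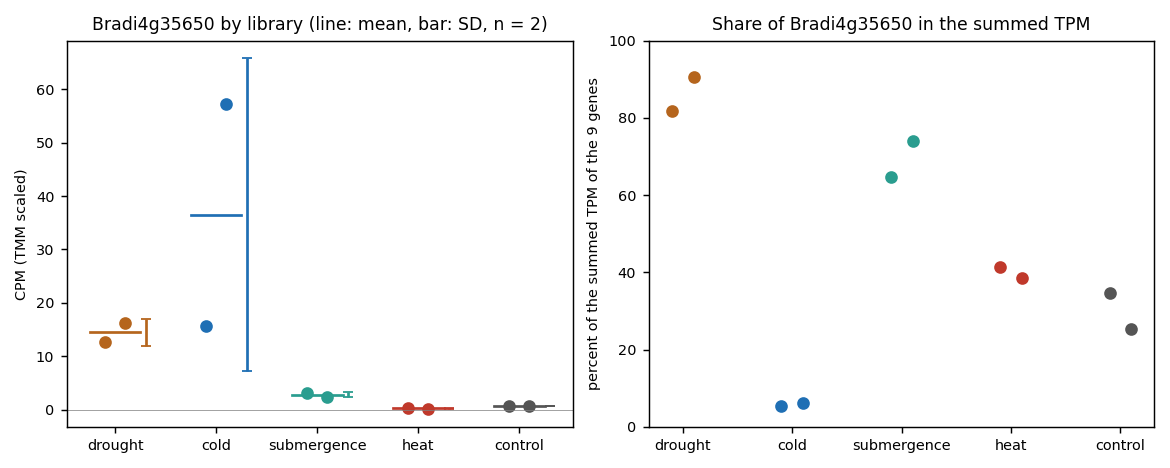
Left, CPM of Bradi4g35650 in each library (points) of the 5 groups, with the mean (line) and SD (bar, n = 2); right, its percent of the summed TPM of the 9 genes in each library. Drought sits at 12.7 and 16.3 CPM and cold at 15.7 and 57.2 CPM, and the gene held 81.8% and 90.6% of the summed TPM in drought against 5.49% and 6.27% in cold.

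The other 8 genes were near 0 in every group outside cold. Bradi4g35650 made up most of the summed TPM in drought and submergence, where its own level was above that in heat and control. It held 81.8% and 90.6% of the summed TPM in drought, 64.7% and 74.0% in submergence, 41.5% and 38.6% in heat, and 34.6% and 25.3% in control. The summed TPM itself was 18.8 and 21.1 in drought, 7.79 and 5.7 in submergence, 1.35 and 0.57 in heat, and 2.86 and 3.71 in control. In cold its share was 5.49% and 6.27%, the lowest of the 5 groups.

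The other 8 genes had between 0 and 8 expected counts in the 8 libraries outside cold. Of these 64 values, rounded to whole counts, 27 were 0 and 13 were above 3. Their highest level was 1.54 TPM, for Bradi4g35570 in drought replicate 1. Of the 9 genes, 8 passed the filter and were tested, and 7 of those passed only through their cold counts. Without the cold libraries, Bradi4g35650 was the only member left to test, so tests outside cold are read for that gene alone.

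Bradi4g35570 had 6 and 4 expected counts in drought (1.54 and 0.95 TPM), against 0.48 and 0 in control, with 5.72 and 0 for submergence and 0 in both heat libraries. The drought libraries were above the control and heat libraries. The counts are too few for a size of the difference, and no test is given, since this gene chose the range and passed the filter only through its cold counts.

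Bradi4g35600 had 5 and 0 expected counts in drought, 8 and 2 in submergence, 6 and 0 in heat, and 2 and 3 in control. Bradi4g35590 had 1 and 1 in drought, 1 and 5 in submergence, 0 and 0 in heat, and 2 and 6.94 in control. For Bradi4g35600 each of these stresses overlapped control. For Bradi4g35590 submergence overlapped control, while drought and heat lay below both control libraries by a few counts. Bradi4g35611 ranged between 0 and 4 expected counts outside cold, Bradi4g35620 between 0 and 4, and Bradi4g35642 between 1 and 5. Counts this low resolve no order of the groups for any of these genes.

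The neighbouring genes in ID order were set beside the range. Just outside it, Bradi4g35557 had 25.7 and 25.7 CPM in cold, against 14.2 and 14.1 CPM in control. On the other side, Bradi4g35655 had 13 and 16 counts in cold (2.47 and 3.16 TPM), against 0 in both control libraries, at least 4.69-fold higher in cold, and it was at 0 in the other 6 libraries as well. Just inside the range, Bradi4g35570 and Bradi4g35650 had 91.3 and 18.2 TPM in cold replicate 1. Bradi4g35655 thus showed the cold-only detection of Bradi4g35580, at a far lower level.

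Of the 10 IDs before and the 10 after the range, 17 were tested. In cold against control edgeR called 3 of them higher and 3 lower, beside 12.2% and 9.63% of all tested genes. The median log2 fold change of the 17 was -0.19, against -0.02 over all tested genes. Among the 3 higher was Bradi4g35655, which had 0 counts outside cold and entered the test through its cold counts alone. In drought against control edgeR called 3 higher and 7 lower, beside 32.1% and 32.8% of all tested genes. The median there was -0.56, against -0.07 over all. Bradi4g35700 was higher in drought by 3.69 ± 0.24 on the log2 scale (SE, edgeR adjusted p = 1.72e-06), and Bradi4g35660 was lower in cold by 2.23 ± 0.44 (SE, edgeR adjusted p = 0.00602). Both were named after their values were seen. Neighbouring genes thus went both ways in both stresses, as all tested genes did, and nothing particular to the neighbours is read from these counts.

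**Figure D4:**
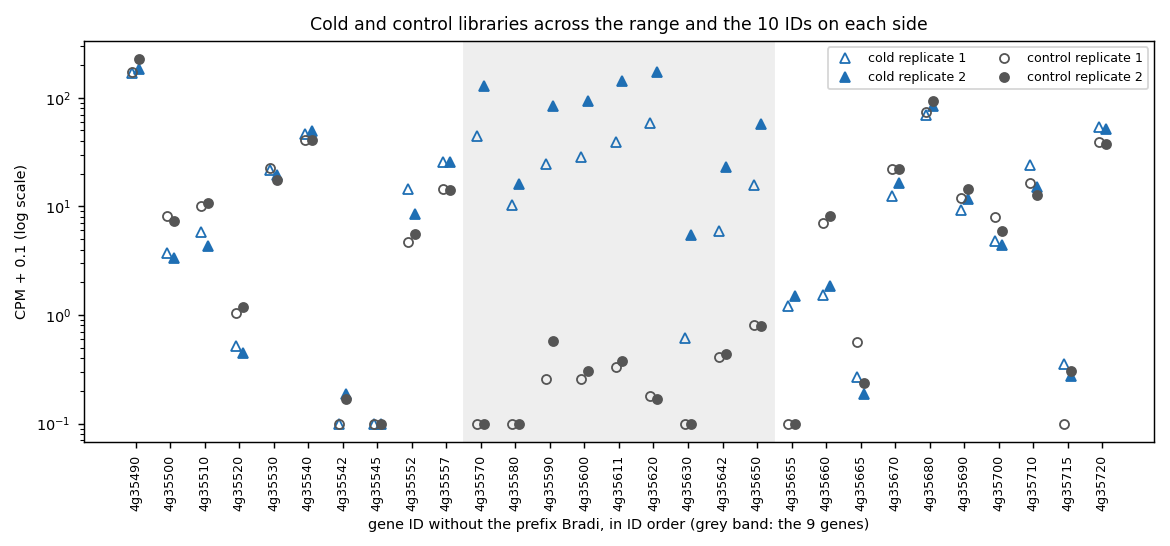
CPM plus 0.1 on a log axis in the 2 cold libraries (triangles) and the 2 control libraries (circles) for the 9 genes (grey band) and the 10 gene IDs on each side, in ID order. Inside the band every cold point lies above both control points, whereas outside it cold points lie on either side of control, and Bradi4g35655 had 0 counts in control.

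The pattern over the 10 libraries was compared between genes by Pearson's r of log2(CPM + 1), given as a description, because the points share the split between the cold libraries and the rest. The 7 tested members other than Bradi4g35650 had r of at least 0.978 with each other, and r between 0.715 and 0.784 with Bradi4g35650. Among 21068 tested genes outside the cluster with a mean of at least 1 CPM, Bradi1g57970 was the closest to Bradi4g35580, Bradi4g35590, Bradi4g35600, Bradi4g35611, Bradi4g35620 and Bradi4g35642, and r with the members it was named for was between 0.992 and 0.999. Bradi1g57970 had 8.64 and 21.9 CPM in cold, and it was at 0 in the other libraries except control replicate 1 with 0.0782 CPM.

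For Bradi4g35570 the closest genes were Bradi3g48380 (r = 0.994), Bradi1g57970 (0.992), Bradi2g08290 (0.985), Bradi2g19900 (0.984) and Bradi3g06260 (0.984). Bradi2g19900 reached 767 and 1187 CPM in cold. Bradi3g06260 had 115 and 110.0 CPM in cold and between 21.7 and 29.8 CPM elsewhere, so that a high r did not mean an absence outside cold. The gene closest to Bradi4g35650 was Bradi2g52336 (r = 0.988), with 4.22 and 6.42 CPM for drought, 3.98 and 11.4 CPM for cold, 2.26 and 1.65 CPM for submergence, 0.581 and 0.696 CPM for heat, and 0.704 and 0.752 CPM for control. Bradi2g52336 was highest in cold replicate 2, as Bradi4g35650 was, while in cold replicate 1 it lay below both drought libraries. It was picked for its likeness over these libraries, so the match is a description.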

How the data were processed

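RNA-seq reads were aligned by the authors with STAR 2.5.3a (Brachypodium distachyon genome v3.1), who deposited, per gene, RSEM 1.2.31 expected counts, TPM values (per length and library) and FPKM values (not used). For PARE, reads were mapped with Bowtie 0.12.7, and the deposited site table gives predictions, levels and abundances, read here as a score. Tables of sorghum and switchgrass were not used. Versions are from the submitters' processing notes.

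Expected counts were rounded. Genes were kept by filterByExpr (23494), scaled by TMM (factors between 0.825 and 1.22) and tested with edgeR 4.0.16 (quasi-likelihood, R 4.3.3), with all 10 libraries in 1 fit and no covariate. P-values were adjusted by Benjamini-Hochberg over all tested genes, with a threshold of 0.05. The SE was taken as the ratio of the log2 fold change to the root of F. A fold against 0 counts uses 3 counts per library. Alternatives were DESeq2 1.42.0, library size scaling, no filter, fits of 2 groups, a replicate block and leaving out libraries. The fit was tested on simulated data.

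The genes and lists were chosen with earlier results of these data known. Named genes are the 9 members, the 5 genes most like Bradi4g35570 and the 1 most like each other tested member. A pathway list, promoter motifs and tissue markers were not formed, because 0 gene IDs matched the 31335 reference genes, so the tissue label was not checked.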

Additional observations from a re-analysis of the deposited data

How the results depend on the processing

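The calls for members moved with the fit as follows, and the cause was not tested. Shares over all tested genes are given above for the main fit, and for DESeq2 in submergence and heat against control. For the other alternatives no such share is given, so their counts show only how the calls moved. Every member other than Bradi4g35650 that an alternative called passed the filter of the main fit only through its cold counts. DESeq2 and the fit with no filter did not use that filter, and there too such calls rest on few counts outside cold. Nothing is read from any of those calls. In drought against control the count of members called by edgeR was 1 and ranged between 1 and 2 as libraries were left out. In submergence against control it was 0, and it was 1 (Bradi4g35650) with library size scaling, no filter, DESeq2 or only the 2 groups compared, and without both cold libraries, an alternative chosen after seeing the data; leaving out libraries gave 0 to 1. In heat against control it was 0, it was 1 (Bradi4g35590) with DESeq2, and leaving out libraries gave 0 to 1. In drought against heat it was 1, it was 2 with no filter, and leaving out libraries gave 1 to 3. In submergence against heat it was 1, it was 2 with DESeq2, and leaving out libraries gave 0 to 2. Cold replicates 1 and 2 were the libraries whose loss moved these counts upward, and heat replicate 2 the one whose loss gave 0 in submergence against heat.

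The correlation of the deviations of same-numbered libraries ranged between -0.17 (submergence and heat) and 0.14 (control and cold). Whether same-numbered samples were grown or handled together is not given, and these values cannot decide it. With the replicate block, 1 member was called in submergence against control (Bradi4g35650, log2 fold change 2.06, edgeR adjusted p = 0.044). The block fit called 1 in heat against control, 3 in drought against heat and 2 in submergence against heat. These counts cannot be set beside a share of all genes, which is not given for the block.

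Of 120 alternative values of the log2 fold change of Bradi4g35650, 111 kept their side of the threshold, 8 passed it only in the alternative and 1 lost it. Without cold replicate 1 the lower bounds of the cold fold were 551 for Bradi4g35570, 67.8 for Bradi4g35580 and 22.7 for Bradi4g35630, and without control replicate 2 the ratio of Bradi4g35590 was 344. Without cold replicate 2 those 3 bounds were 187, 43.7 and 2.17, as reported, since they rest on cold replicate 1, and the ratios of the other 6 genes were lower, between 17.8 for Bradi4g35642 and 802 for Bradi4g35620. With a pseudocount of 0.1 CPM, r with Bradi4g35570 was 0.938 for Bradi1g57970 and 0.933 for Bradi2g08290. Library size scaling moved the median log2 fold change over all tested genes to -0.36 in drought against control (-0.07 with TMM). With 2 libraries a group and counts of 0 to 8 outside cold, small changes of 8 of the 9 genes could not be resolved.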
